A study of Mus musculus with 8 samples.

Results

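The probes described here are oligos of 60 bases on a mouse expression array whose sequence, read as printed on the array, holds TGTTTAC. Those 7 letters are the DNA reverse complement of bases 2 to 8 of mature mouse miR-30a-5p, and the probes were picked from the array's non-control probes by an exact search for them. The search found 240 such probes among 42006, a share of 0.571%. A probe was then kept if its footpad (Cy3) signal was well above background, by the scanner software's own mark, on both arrays of at least 1 of the 4 groups, which left 175 of the 240.

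Total RNA came from footpad skin of C57BL6 mouse embryos taken at the embryonic stages E16.5 or E17.5, either wild type (WT) or with the genotype that the labels write as Dicer cKO (KO), a conditional loss of Dicer. Each of the 4 groups had 2 arrays, labelled as biological replicates, and each array carried RNA pooled from 3 to 5 embryos. The promoter or cell type that drives the deletion is not given in the sources used here. On every array footpad RNA was labelled with Cy3 and a universal mouse reference RNA with Cy5, with no dye swap. Values below are M, the footpad over reference signal as a log2 ratio, after background correction and loess normalization. A KO minus WT difference of M is a log2 fold change between the genotypes. The files name no gene and place no probe on a chromosome, so whether a probe lies in a coding stretch or an untranslated region, the level of Dicer itself, and the markers of footpad cell types were not analysed here. A match is a run of letters in a probe and not a shown binding site. In RNA from whole dissected skin, fewer cells of a type and less of an RNA per cell cannot be told apart.

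Dicer cuts hairpin precursors into mature microRNAs. A microRNA pairs with messenger RNAs mainly through its seed, the bases just behind its 5′ end, and pairing usually lowers the stability and translation of the message. Members of the miR-30 family share their seed, and an A across from the first base of the microRNA is known to strengthen a site.

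The mature miRNAs of the reference table that carry this seed are printed to show what the probes were matched to, with the seed (bases 2 to 8) in capitals; they come from RefSeq on GRCm38.p6.
miR-30a-5p: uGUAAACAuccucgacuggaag
miR-30c-5p: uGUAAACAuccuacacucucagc
miR-30e-5p: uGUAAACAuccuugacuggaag
miR-384-5p: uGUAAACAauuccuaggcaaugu
These lie at chr1:23272274-23272295 (plus strand), chr1:23291714-23291736 (plus strand), chr4:120772660-120772681 (minus strand) and chrX:105344332-105344354 (minus strand), in that order. All 4 share 1 seed, so a match to TGTTTAC cannot tell them apart. miR-30b and miR-30d are further members of the family.

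The probes that the KO results turn on are shown as windows of 30 bases, 5′ to 3′ as written on the array, with the match in capitals. The first 7 gave a higher ratio in KO and the last 5 a lower one in at least 1 comparison.
Z00049965-1: gttcatctattttaaacacaaaTGTTTACa
Z00015212-1: tcttggatcatttgatagTGTTTACacaca
Z00035636-1: tctcttggatcatttgatagTGTTTACaca
Z00001873-1: gtTGTTTACctaatcagcacattttgtctg
Z00016015-1: acttgtagcaagTGTTTACattgctgagca
Z00006191-1: ccTGTTTACtaaacccccgttttctaccga
Z00026706-1: cctcaagtggagTGTTTACaccttgctgta
Z00046413-1: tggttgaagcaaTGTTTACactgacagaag
Z00013843-1: gtgcTGTTTACagaattaaaaattgcatac
Z00036014-1: tggacattagaaTGTTTACtgctattctct
Z00065837-1: ttgttcataaaaactttgaccagTGTTTAC
Z00054647-1: gcacattgatggcgcctaTGTTTACcacaa
Z00015212-1 and Z00035636-1 read the same stretch of sequence at starts 2 bases apart, so they share 1 target. Z00065837-1 ends with the match, and the base that would follow it is not on the probe.

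Of the 240 probes with a match, 160 were above background in all 4 groups, 7 in 3 groups, 5 in 2 and 3 in 1. The 3 that passed through a single group did so in KO E16.5 (2 probes) or WT E17.5 (1 probe); Z00063563-1, for example, was above background on both KO E16.5 arrays, on 1 WT E16.5 array and on no E17.5 array. Among the 65 that did not pass, 56 were above background on no array and 9 on some arrays without reaching both of a group. The share kept was 72.9%, against 69.5% of the other 41766 probes and 66.6% of those when weighted to the same GC content. The kept probes were richer in A and T, with a median of 24 G or C bases (40.0%) against 27 (45.0%). Where others are called GC-weighted below, they were weighted to the GC content of the probes with a match; backgrounds, the shares by overlap of arrays and the comparisons between stages are unweighted.

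In the 175 kept probes the base after the match was A in 79 (45.1%), T in 50, C in 34 and G in 8, and in 4 the probe ended there. Each held a single copy of the match. The polyadenylation signal AATAAA, searched on the printed strand, lay in 17 of the 175 (9.71%), against 10.7% of the GC-weighted others and 6.93% of all probes on the array. The AU-rich element core ATTTA lay in 11 (6.29%), against 10.2% of the GC-weighted others and 7.25% of all probes. A Pumilio-like TGTANATA lay in 3 (1.71%), against 1.63% and 0.971%. By their letters none of these motifs can overlap TGTTTAC. On the opposite strand the same 3 motifs lay in 7, 14 and 0 of the 175 (4.0%, 8.0% and 0%), against 3.36%, 8.05% and 0.548% of all probes. The 7-letter matches of other microRNAs known from embryonic skin were also searched. That of miR-200a and miR-141, CAGTGTT, lay in 6 probes (3.43%, against 0.826% of the GC-weighted others), and in all 6 it ran into TGTTTAC, with which it shares letters. That of miR-17 (GCACTTT) lay in 2 probes and that of miR-19 (TTTGCAC) in 1, and those of let-7 (CTACCTC), miR-203 (CATTTCA), miR-200b (CAGTATT) and miR-205 (ATGAAGG) in none. On the opposite strand each of these 7 matches lay in at most 2 of the kept probes. Among all 240, 6 pairs shared 20 bases or more, so 12 probes are not independent of a partner.

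Arrays of the same group correlated at 0.995 to 0.996 over all tested probes, arrays of the same stage but different genotype at 0.984 to 0.993 and arrays of different stages at 0.951 to 0.980. The 4 arrays of a stage shared a slide, so stage and slide cannot be told apart. On both slides the KO samples held the first 2 array positions and WT the last 2, so position and genotype cannot be told apart either. The share of all probes above background ran from 67.7% to 72.0% on the E16.5 arrays, and was 62.0% and 65.1% on KO E17.5 against 69.7% and 66.5% on WT E17.5; its part in the E17.5 results was not tested.

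At E16.5, probes with a miR-30 match lay slightly higher in KO than other probes of like GC content. Their median KO minus WT difference was 0.058 (174 probes), against 0.026 in the GC-weighted others and 0.013 in the others unweighted, a gap of 0.032 on the log2 scale (0.022 under median centring). Single differences ran from -0.59 to 0.39. Of the 174, 125 had a difference above 0 (71.8%), against 59.1% of the GC-weighted others. The middle of the probes with a match, from the lower to the upper quartile, ran from -0.011 to 0.13, and that of the others from -0.053 to 0.10, so both sets overlapped over most of their range. With no filter on signal the gap was 0.031 over 239 probes. Between single arrays, the gap for a KO array against a WT array of E16.5 ran from 0.010 to 0.049 over the 4 pairs. The same quantity between the replicates of 1 group ran in size from 0.0049 to 0.021 over the 4 groups, so the lowest of the KO against WT pairs lay inside the replicate range and the other 3 above it. Taken array by array instead, as the median M of the probes with a match minus that of the GC-weighted others, the value was 0.017 and -0.0087 in WT E16.5 and 0.015 and 0.069 in KO E16.5, so the genotypes overlapped. On that measure replicates lay up to 0.072 apart (WT E17.5) and the KO E16.5 pair 0.055 apart, both more than the gap of 0.032. Without KO E16.5 replicate 2 the gap in the differences was 0.016; that array had the highest value of the 8 by the measure per array.

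Single probes at E16.5 showed a small number of rises and no fall. With limma adjusted p under 0.05 as the call, 4 of 174 probes rose in KO and none fell. Over all tested probes the background called was 2.95% in either direction, 1.09% higher and 1.86% lower. Median centring of the arrays moved the median of all tested probes by -0.087 and gave 0 higher and 2 lower, against a background of 0.172% and 2.14%; the 4 probes lost the call there and kept their direction. The 4 that rose did so by 1.23-fold to 1.31-fold. Leaving out any 1 array of that stage lowered the number called, and the background over all tested probes fell as well. None was called with normexp, the background model, fitted with the spots marked non-uniform left in. The scanner software's processed signals and the authors' series matrix gave no call either. All 4 kept their direction in these settings, where the background was 0%, 0.334% and 0.384%.

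Z00049965-1 read 2.75 and 2.76 on the WT E16.5 arrays and 3.09 and 3.20 on the KO arrays. Both KO arrays lay above both WT arrays. The difference was 0.39 (SE 0.059, limma adjusted p = 0.0143), 1.31-fold. At E17.5 it read 2.49 and 2.44 in WT and 2.90 and 2.99 in KO, again with no overlap. There the difference was 0.48 (SE 0.059, limma adjusted p = 0.00182), 1.39-fold.

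Z00015212-1 gave a ratio below the reference on every array, which with no dye swap need not be a difference in abundance. It read -1.81 and -1.82 in WT E16.5 and -1.47 and -1.43 in KO E16.5, a difference of 0.37 (SE 0.059, limma adjusted p = 0.0192). At E17.5 it read -1.94 and -1.79 in WT and -1.19 and -1.21 in KO, the largest rise among the called probes with a match, 0.66 (SE 0.059, limma adjusted p = 0.000431), 1.58-fold. With the processed signals the differences were 0.63 at E16.5 (limma adjusted p = 0.0664) and 1.18 at E17.5 (limma adjusted p = 0.00750). The KO arrays were the higher at both stages. Its overlapping partner Z00035636-1 read -1.78 and -1.97 in WT E16.5, -1.66 and -1.51 in KO E16.5, -1.92 and -1.85 in WT E17.5, and -1.44 and -1.48 in KO E17.5. The partner's KO arrays also lay above its WT arrays at both stages, with differences of 0.29 (limma adjusted p = 0.0872) and 0.43 (limma adjusted p = 0.00952). Both probes thus gave the same direction for 1 target, and the call at E16.5 was made for 1 of them.

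The other pair of probes called at E16.5 had lower estimates at E17.5, and the change between stages was not called in either. Z00001873-1 read 1.01 and 1.08 in WT E16.5 and 1.40 on both KO arrays, then 1.03 on both WT E17.5 arrays and 1.32 and 1.29 in KO E17.5. Its differences were 0.36 (limma adjusted p = 0.0107) and 0.27 (limma adjusted p = 0.00947). Z00016015-1 read 1.16 and 1.19 in WT E16.5, 1.45 and 1.49 in KO E16.5, 1.10 and 1.04 in WT E17.5 and 1.25 and 1.30 in KO E17.5. Its differences were 0.30 (limma adjusted p = 0.0242) and 0.20 (limma adjusted p = 0.0370). Neither probe's groups overlapped at either stage. All 4 probes called at E16.5 were also called higher at E17.5, on arrays of other embryos, as were 223 of the 311 other probes called higher at E16.5 (71.7%); 1 of the 4 (Z00001873-1) has C behind the match and the other 3 have A.

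At E17.5 more of these probes were called, in close to the proportion of the whole array. Of 175, 26 were called (14.9%), against a background of 14.8%. The calls were 18 higher and 8 lower, where the background was 6.97% higher and 7.83% lower over all tested probes and, weighted to the same GC content, 8.05% and 7.75% of the others. Median centring moved the median of all tested probes by -0.053 and gave 2 higher and 8 lower (1.14% and 4.57%), against a background of 0.865% and 4.96%; all 26 probes kept their direction. The called rises ran from 1.14-fold to 1.58-fold (median 1.22) and the called falls from 1.14-fold to 1.54-fold (median 1.26). The median difference over the 175 was 0.0094, against 0.012 in the GC-weighted others, with 54.3% above 0 against 53.2%, and single differences ran from -0.63 to 0.66. The gap in the medians was -0.0025, and it ran from -0.0059 to 0.023 over the 4 pairs of a KO and a WT array. Leaving out any 1 E17.5 array lowered both the number called and the background, and all 26 probes kept their direction. With the marked spots kept in the background model 0 were called, against a background of 0.113%.

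Beside the probes already described, the largest rises at E17.5 were in 2 probes. Z00006191-1 read -3.04 and -2.96 in WT E17.5 and -2.36 and -2.55 in KO. The difference was 0.54 (SE 0.072, limma adjusted p = 0.00364), 1.45-fold. Both of its KO E16.5 spots were marked non-uniform and left out, so it has no E16.5 difference; WT E16.5 read -3.45 and -3.46. Z00026706-1 read 0.58 and 0.83 in WT E17.5 and 1.13 and 1.15 in KO, with a difference of 0.43 (SE 0.086, limma adjusted p = 0.0132). That call was lost on leaving out 3 of the 8 arrays, 1 at a time, and under 4 other settings, the processed signals (0.45, limma adjusted p = 0.0524) among them. At E16.5 it read 0.99 and 0.83 in WT and 1.02 and 1.05 in KO (0.13, limma adjusted p = 0.454). Its KO arrays were the higher at both stages, narrowly so at E16.5.

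The 4 largest falls at E17.5 were in probes whose WT level was higher at E17.5 than at E16.5. Z00046413-1 read 2.42 and 2.41 in WT E16.5 and 2.44 and 2.28 in KO E16.5, where the groups overlapped. At E17.5 WT read 3.10 and 2.97 while KO read 2.35 and 2.46, so that WT stood apart from the other 3 groups. The difference at E17.5 was -0.63 (SE 0.071, limma adjusted p = 0.00126), 1.54-fold, and the test of the change of the KO effect between stages gave -0.57 (limma adjusted p = 0.0691). In WT the probe rose from E16.5 to E17.5 by 0.62 (limma adjusted p = 0.000447), and in KO the difference was 0.046 (limma adjusted p = 0.675).

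Z00013843-1 had the widest replicate spread of the named probes. It read 2.22 and 2.57 in WT E16.5 and 1.91 and 1.69 in KO E16.5, then 3.18 and 2.81 in WT E17.5 and 2.29 and 2.45 in KO E17.5. The KO arrays were the lower at both stages, by -0.59 (SE 0.15, limma adjusted p = 0.0728) and -0.63 (SE 0.15, limma adjusted p = 0.0247). Leaving out single arrays took the E17.5 call away in 3 of 8 cases, with limma adjusted p up to 0.149 without WT E17.5 replicate 1. At E17.5 the difference was -0.26 with the processed signals (limma adjusted p = 0.351) and -1.58 with normexp fitted on all spots (limma adjusted p = 0.255). In both genotypes the probe rose with stage, by 0.60 in WT (limma adjusted p = 0.0175) and 0.56 in KO (limma adjusted p = 0.0207).

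Z00036014-1 read 0.07 and 0.19 in WT E16.5, -0.12 and -0.21 in KO E16.5, 0.56 and 0.47 in WT E17.5, and 0.09 and -0.01 in KO E17.5. Its KO arrays were the lower at both stages, by -0.29 (limma adjusted p = 0.0557) and -0.48 (limma adjusted p = 0.00308). Z00065837-1 read 1.44 and 1.50 in WT E16.5, 1.37 and 1.30 in KO E16.5, 2.24 and 2.38 in WT E17.5, and 1.94 and 1.87 in KO E17.5. Its difference was -0.14 at E16.5 (limma adjusted p = 0.279) and -0.40 at E17.5 (limma adjusted p = 0.00524). The remaining 4 falls at E17.5 were smaller and included a second overlapping pair, Z00014587-1 and Z00075140-1, singled out because they share a target. They gave -0.27 (limma adjusted p = 0.0186) and -0.25 (limma adjusted p = 0.0430) at E17.5, and 0.10 and 0.12 at E16.5 (limma adjusted p = 0.375 and 0.362). The remaining tested pair that overlaps, Z00019670-1 and Z00036159-1, was not called at either stage.

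With both stages fitted together, with stage and genotype as terms, 36 of 175 probes were called (20.6%), against a background of 15.7%. Of these, 26 were higher and 10 lower, against a background of 7.79% and 7.9%, and 9.73% and 7.38% of the GC-weighted others. Median centring moved the median of all tested probes by -0.067 and gave 4 higher and 16 lower (2.29% and 9.14%), against a background of 0.845% and 12.4%; 35 of the 36 probes kept their direction. The called rises ran from 1.10-fold to 1.43-fold in the 25 probes measured at both stages and the falls from 1.09-fold to 1.52-fold. The other called rise, Z00006191-1, has no KO E16.5 value, so its difference is that of E17.5 alone. Of the calls at E17.5, 14 higher and 4 lower were also called here. This fit includes the E17.5 arrays, so such an overlap is partly built in, and it was not counted for the other probes. The median difference was 0.032, against 0.020 in the GC-weighted others. Leaving out any 1 array lowered both the number called and the background. For some arrays left out, the share called came close to its background. Fitted with the replicate number as a block, 15 were called (8.57%), against a background of 8.57%. Of these 15, 13 were higher (7.43%) and 2 lower (1.14%), against a background of 3.98% and 4.59%.

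The named rises over both stages were Z00015212-1 (0.51, limma adjusted p = 0.00122), Z00049965-1 (0.43, limma adjusted p = 0.000453), Z00035636-1 (0.36, limma adjusted p = 0.00430) and Z00001873-1 (0.32, limma adjusted p = 0.00109). Z00015212-1 and Z00035636-1 share a target. The named falls were Z00013843-1 (-0.61, limma adjusted p = 0.00442), Z00036014-1 (-0.39, limma adjusted p = 0.00234), Z00065837-1 (-0.27, limma adjusted p = 0.0189) and Z00054647-1, for which no size is given. Z00054647-1 read 0.32 and 0.42 in WT E16.5, 0.24 and 0.10 in KO E16.5, 0.66 on both WT E17.5 arrays, and 0.16 and 0.49 in KO E17.5. It was not well above background on either KO E16.5 array, so its KO E16.5 value is a bound. In KO E17.5 it was above background on 1 of 2 arrays. At E16.5 its Cy3 signal alone had log2 means of 6.46 in WT and 6.15 in KO. The difference of M at that stage was not called (limma adjusted p = 0.313). Its call over both stages (limma adjusted p = 0.0361) was lost on leaving out 5 of the 8 arrays, 1 at a time, and under 6 of 12 other settings.

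Counted by overlap of the arrays, 171 of the probes were measured on all 8. At E16.5 both KO arrays lay above both WT arrays in 76 of them (44.4%), against a background of 29.3% over all probes measured on 8 arrays, and below in 23 (13.5%), against 23.1%. At E17.5 both KO arrays lay above in 59 (34.5%), against 30%, and below in 42 (24.6%), against 28.3%. At E16.5 the probes with a match lay above their background share on the higher side and below it on the lower side, and at E17.5 they did so by fewer percentage points. These backgrounds are not GC-weighted. For differences above 0 at E16.5, GC weighting moved the share of the others from 54.7% to 59.1%.

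The stages share no array, and their KO effects were set side by side. Over 174 probes with a match, the E16.5 and E17.5 differences correlated with Pearson's r 0.61 and Spearman's rho 0.52; over the other probes these were 0.56 and 0.49. Points are probes that share the same 8 arrays, slides and reference. The sign was the same at both stages in 67.2% of the probes with a match (81 higher and 36 lower at both) and in 66.3% of the others. Called at both stages were 4 probes with a match, all higher in KO, and 662 of the 851 others called at E16.5 (77.8%), of which 223 were higher at both stages, 436 lower at both and 3 opposite. The change of the KO effect between stages was called in 0 of 174 probes with a match, against a background of 0.308% (0.114% positive and 0.194% negative). With Cy3 alone, quantile-normalized, 2 were called (1.15%), against a background of 0.688%.

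Probes were also split by what follows the match. At E16.5 the 79 with an A behind it had a median difference of 0.075 and 81.0% lay above 0, while the 95 without that A had 0.053 and 64.2%. Another 224 tested probes that match bases 2 to 7 of the seed only had 0.023 and 57.1%. The medians of the GC-weighted others ran from 0.018 to 0.027 for these sets, so the gaps were 0.048, 0.028 and 0.0051. At E17.5 the order did not hold: the medians were 0.0070, 0.014 and 0.013. Probes followed by A were 45.1% of the kept probes. Of the calls, they held 3 of the 4 at E16.5, and 9 of the 18 rises and 2 of the 8 falls at E17.5. Over both stages they held 15 of the 26 rises and 3 of the 10 falls. The rises were 11.39% of the 79 at E17.5 and 18.99% over both stages, against backgrounds of 6.97% and 7.79%. The falls were 2.53% and 3.8%, against backgrounds of 7.83% and 7.9%. These backgrounds are not GC-weighted. The differences between these sets of probes were not tested.

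Medians by other features of the probes are given as descriptions, without a test. With AATAAA in the probe, the median difference at E16.5 was 0.12 (16 probes), and without it 0.053 (158 probes); at E17.5 these were 0.053 and 0.0093. With the 10 bases on either side of the match at least 60% A or T, the E16.5 median was 0.079 (93 probes), and below that 0.051 (81 probes). By GC content of the probe, the E16.5 median exceeded that of the other probes in each of 4 classes: 0.083 against 0.049 with up to 22 G or C bases (65 probes), 0.024 against 0.021 with 23 to 26 (58 probes), 0.068 against 0.0051 with 27 to 30 (40 probes), and 0.066 against -0.012 with 31 or more (11 probes). At E17.5 the 2 lower classes lay below the others (0.018 against 0.024 and -0.0039 against 0.012) and the 2 higher classes above them. The 15 probes above background in 1 to 3 groups had an E16.5 median of 0.0093, and the 159 above it in all 4 had 0.062.

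From E16.5 to E17.5, 49 of 175 probes with a match were called in WT (26 higher and 23 lower at E17.5), against a background of 24.7% (13% higher and 11.7% lower). In KO 67 of 174 were called (24 higher and 43 lower), against a background of 28.1%. In KO the share called lower was 24.7%, against a background of 14.8% and 17.3% of the GC-weighted others. In both genotypes 18 of 174 were called higher (10.3%) and 18 lower (10.3%), against 8.63% and 7.97% of the other probes, and 0 were called in opposite directions. Whether the stage difference itself differed by genotype is the test given above, which called 0. Without KO E16.5 replicate 2, 24 were called in KO (13.8%), against a background of 13.3% without that array, so that the share was close to its background. Without KO E17.5 replicate 1, 32 were called (18.4%), against 14.9%.

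The probes with the largest stage differences are shown as the sequences that changed most with age and slide.
Z00048113-1: gaacaggaagccTGTTTACaaggatcccct
Z00001525-1: ggtataactcatTGTTTACactatgtttta
Z00045784-1: tataagcaacgaTGTTTACggagcttcagc
Z00032415-1: actgcctatataaatatgTGTTTACataaa
Z00062192-1: tcagtaaaaggaTGTTTACcctattggcaa
Z00048113-1 read 2.49 and 2.56 in WT E16.5, 2.55 and 2.25 in KO E16.5, 3.33 and 3.46 in WT E17.5, and 3.39 and 3.21 in KO E17.5. It rose by 0.88 in WT and 0.90 in KO (limma adjusted p = 0.000440 and 0.000498), with overlapping genotypes at each stage. Z00065837-1, lower in KO at E17.5, rose by 0.84 in WT and 0.57 in KO (limma adjusted p = 5.23e-05 and 0.000509). Z00001525-1 read 0.68 and 0.70 in WT E16.5, 0.93 and 0.85 in KO E16.5, 1.39 and 1.51 in WT E17.5, and 1.72 and 1.57 in KO E17.5, a rise of 0.76 and 0.75 (limma adjusted p = 0.000114 and 0.000192). All 4 of its KO arrays lay above the WT arrays of the same stage.

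Among the probes lower at E17.5, Z00045784-1 read 1.32 and 1.23 in WT E16.5, 1.37 and 1.61 in KO E16.5, 0.90 and 0.65 in WT E17.5, and 0.85 and 0.80 in KO E17.5. It differed by -0.50 in WT and -0.66 in KO (limma adjusted p = 0.00681 and 0.00191). Z00032415-1 read 3.19 and 3.11 in WT E16.5, 3.30 and 3.33 in KO E16.5, 2.70 and 2.65 in WT E17.5, and 2.79 and 2.92 in KO E17.5, a difference of -0.47 in WT (limma adjusted p = 0.000831). Its KO arrays were the higher at each stage, and the difference over both stages was 0.17 (limma adjusted p = 0.0258). Z00062192-1 read 0.81 and 0.91 in WT E16.5, 1.02 and 1.09 in KO E16.5, 0.67 and 0.32 in WT E17.5, and 0.42 and 0.38 in KO E17.5. It fell with stage in KO by 0.65 (limma adjusted p = 0.00217) and in WT by 0.36 (limma adjusted p = 0.0294).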

How the data were processed

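The probes, groups of probes and lists were chosen with earlier results of these data known. Per the file headers, Agilent Feature Extraction 9.5.1.1 gave each spot's mean and background intensity on a linear scale. Spots marked non-uniform in either dye (269 to 364 of 43451 per array) were left out, and the deposited intensities were corrected with normexp (offset 50). This background setting was chosen knowing that normexp fitted on all spots gives almost no calls, so the counts reported rest on it. Loess was then run array by array, giving the 1417 control spots weight 0, in limma 3.58.1 under R 4.3.3. The highest local Cy3 background was 26390 on the second KO array of E17.5 and 1333 on the first WT array of E16.5; the other 6 arrays had 50.5 to 52. The ratio Cy3 over Cy5 was taken on a log2 scale from the deposited intensities. The 29199 probes that passed the background filter were fitted with 1 mean per group over all 8 arrays, or with stage and genotype as terms, and p-values were adjusted over all of them by Benjamini-Hochberg, with a call at an adjusted p under 0.05. Where a spot was left out, that array gave no value for the probe. Pools may share litters, so p-values measure the spread between these arrays; 2 per group limit the precision. The deposited series matrix holds log10 values (column medians 2.23 to 2.24) that equal the log10 processed ratio plus the mean log10 Cy5 within 0.000159 on the 24641 probes compared, of 41999; it served as an alternative. Other probes were weighted to the GC content of the probes with a match, a step tested on simulated data. Of the probe identifiers, 0 matched the 49997 genes of the reference table (GRCm38.p6), so probes are named by identifier. The named probes are, per genotype comparison, up to 4 called rises and 4 called falls of the largest size whose groups did not overlap, or the 2 of smallest p in a direction without a call, and for stage the 2 largest in each direction. Same-numbered replicates did not deviate together (r = -0.22 at E16.5 and -0.014 at E17.5), so replicate numbers were not taken as pairs.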

Additional observations from a re-analysis of the deposited data

How the results depend on the processing

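Counts of called probes with a match moved with the background model and the scaling, and the cause was not tested. As reported they were 4 at E16.5, 26 at E17.5, 36 over both stages, 0 for the change of the KO effect, 49 for stage in WT and 67 for stage in KO. The backgrounds over all tested probes were, in that order, 2.95%, 14.8%, 15.7%, 0.308%, 24.7% and 28.1%. With normexp fitted on all spots the counts were 0, 0, 1, 0, 2 and 0. Their backgrounds were 0%, 0.113%, 0.144%, 0%, 1.62% and 0.812%. Of the 26 calls at E17.5, 23 kept their direction there. With the scanner software's processed signals, 0, 15 and 20 were called for KO against WT and 32 for stage in WT. These were 0%, 8.57%, 11.4% and 18.3% of the probes, against backgrounds of 0.334%, 9.07%, 10.8% and 17.9%. The authors' series matrix also gave 0, 15, 20 and 32, against 0.384%, 9.22%, 11.0% and 18.0%. For stage in KO the processed signals gave 50 (28.7%, against 22.2%) and the series matrix 51 (29.1%, against 22.5%). Median centring gave 2, 10, 20, 0, 28 and 32. These were 1.15%, 5.71%, 11.4%, 0%, 16% and 18.4% of the probes. The backgrounds were 2.31%, 5.82%, 13.2%, 0.346%, 13.0% and 12.2%. Cy3 alone gave 9 at E16.5 (5.17%, against a background of 4.53%) and 2 for the change of the KO effect (1.15% against 0.688%). An adjusted p under 0.10 gave 10 at E16.5, 43 at E17.5 and 1 for the change (5.75%, 24.6% and 0.575%). The backgrounds at that threshold were 6.49%, 22.3% and 0.826%. The probes followed by A alone held 11 calls at E17.5, 18 over both stages, 20 for stage in WT and 30 in KO, since fewer probes are counted. These were 13.9%, 22.8%, 25.3% and 38.0% of them, against backgrounds of 14.8%, 15.7%, 24.7% and 28.1%. The background over all tested probes fell in every comparison when any 1 array was left out. The counts of probes with a match below are to be read against that fall. Leaving out 1 array gave 0 to 4 at E16.5, 7 to 24 at E17.5, 16 to 31 over both stages, 0 for the change, 29 to 48 for stage in WT and 24 to 68 in KO.

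With the replicate number as a block, 2 were called at E16.5, 15 over both stages, 25 for stage in WT and 27 in KO. The crossed pairing, chosen after seeing the data, gave 23 over both stages and 2 for the change.

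The gap in the medians to other probes of like GC content at E16.5 was 0.045 with a normexp offset of 10, 0.042 in the series matrix, 0.048 for probes followed by A and 0.045 without GC weighting, and 0.016 to 0.039 on leaving out 1 array. At E17.5 it was 0.0096 with the offset of 10, -0.017 under median centring, 0.0072 with Cy3 alone, 0.0095 in the series matrix and -0.0025 to 0.0095 on leaving out 1 array. Over both stages it was 0.00021 on all spots, 0.0012 without a filter, 0.025 for probes followed by A, 0.022 without GC weighting and 0.0078 to 0.024 on leaving out 1 array. No named difference reversed; of 643 values recomputed for named probes, 547 kept their side of the threshold, 89 lost the call and 7 gained it. Naming probes by a protein match was not run here.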
